A study of Mus musculus with 6 samples.

Results

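The Ifit and Ifitm genes encode the interferon-induced proteins with tetratricopeptide repeats and the interferon-induced transmembrane proteins. The members described here were the 8 genes Ifit1, Ifit2, Ifit3, Ifit3b, Ifitm1, Ifitm2, Ifitm3 and Ifitm6, found by symbol among the 52550 genes of the deposited count table. RNA was sequenced from bone marrow-derived macrophages of MSR1 knockout (MSR1 KO) and wild-type (MSR1 WT) mice, with 3 libraries in each of the 2 groups. All mice were C57BL/6, and no source used here limits the deletion to macrophages. Both groups were grown for 7 days with M-CSF, the growth factor of macrophages, at 25 ng/ml, and then shared medium with bone marrow stem cells (BMSCs) across a transwell membrane for 48 h, so no macrophages kept without BMSCs enter any comparison. The study calls the libraries biological replicates, but the age of the mice, the number of mice behind each library and the genotype of the BMSCs are not given in the sources used here. The genes were proposed with the MSR1 KO against MSR1 WT difference already known, so that difference is given for them as a description: no p-value is printed for them, and counts of members past a threshold support nothing.

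Ifit proteins are cytosolic. Ifit1 binds RNA ends that lack the full methylated cap and blocks their translation, Ifit2 binds AU-rich RNA, and Ifit3 works as a partner of other Ifit proteins. Ifitm proteins sit in the plasma membrane and in endosomes, where Ifitm3 in particular holds back fusion of enveloped viruses. Type I interferon drives the Ifit genes and several Ifitm genes through the factor ISGF3, which binds the interferon-stimulated response element (ISRE), and resting macrophages already hold some of these transcripts.

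The start regions of the members are shown first because the families are named for induction by interferon and because 2 of the Ifit genes are near copies. The ISRE core was searched as a pair of GAAA boxes with any 2 bases between them (TTTC boxes when read on the other strand) on both strands of the RefSeq promoter windows of GRCm38.p6, each of which runs from 250 bases before the transcription start to 50 bases after it. Of 32851 mouse promoter windows, 1131 (3.44%) hold this core. In the stretches below, written 5′ to 3′ on the strand of the gene, capitals mark the core. Ifit1 (chr19:34640770-34640828, plus strand), Ifit3 (chr19:34583358-34583431, plus strand), Ifit3b (chr19:34607754-34607827, plus strand), Ifitm2 (chr7:140955933-140956021, minus strand) and Ifitm3 (chr7:141010716-141010804, minus strand) hold it, whereas the stretches around the starts of Ifitm1 (chr7:140968016-140968104, plus strand) and Ifitm6 (chr7:141016864-141016952, minus strand) do not.
Ifit1: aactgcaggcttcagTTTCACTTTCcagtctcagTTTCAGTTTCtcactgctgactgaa
Ifit3: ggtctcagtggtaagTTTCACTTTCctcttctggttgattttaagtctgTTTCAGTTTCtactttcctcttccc
Ifit3b: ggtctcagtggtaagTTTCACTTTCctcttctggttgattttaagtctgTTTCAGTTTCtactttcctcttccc
Ifitm2: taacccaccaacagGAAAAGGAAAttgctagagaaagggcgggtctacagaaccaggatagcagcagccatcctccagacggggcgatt
Ifitm3: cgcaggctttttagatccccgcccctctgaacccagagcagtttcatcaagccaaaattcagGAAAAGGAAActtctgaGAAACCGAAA
Ifitm1: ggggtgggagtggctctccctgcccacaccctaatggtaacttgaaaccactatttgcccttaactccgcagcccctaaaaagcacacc
Ifitm6: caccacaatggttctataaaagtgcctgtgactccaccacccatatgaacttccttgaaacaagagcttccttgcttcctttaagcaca

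Ifit1, Ifit3 and Ifit3b each held 2 cores, on the strand opposite to the gene and upstream of its start. The Ifit3 and Ifit3b stretches were the same letter for letter, although the RefSeq start of Ifit3b lies farther from them (the cores begin 156 and 122 bases before the start of Ifit3 and 188 and 154 bases before that of Ifit3b). Ifitm2 held 1 core, which begins 46 bases before its start, and Ifitm3 held 2, which begin 2 and 19 bases after the annotated start. Ifit2 has 2 RefSeq windows, and neither holds the core, nor do the windows of Ifitm1 and Ifitm6. The second motif searched, the gamma-activated site TTCNNNGAA, is found in 8.3% of all windows and was present once in 1 of the Ifit2 windows, once in the Ifitm3 window, where it overlaps the downstream core, and once in the Ifitm6 window. The third, the TATA box as TATAAA, is found in 13.6% of windows and was present in those of Ifitm2 and Ifitm6. These matches describe letters in a fixed window, and binding was not measured.

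**Figure D1:**
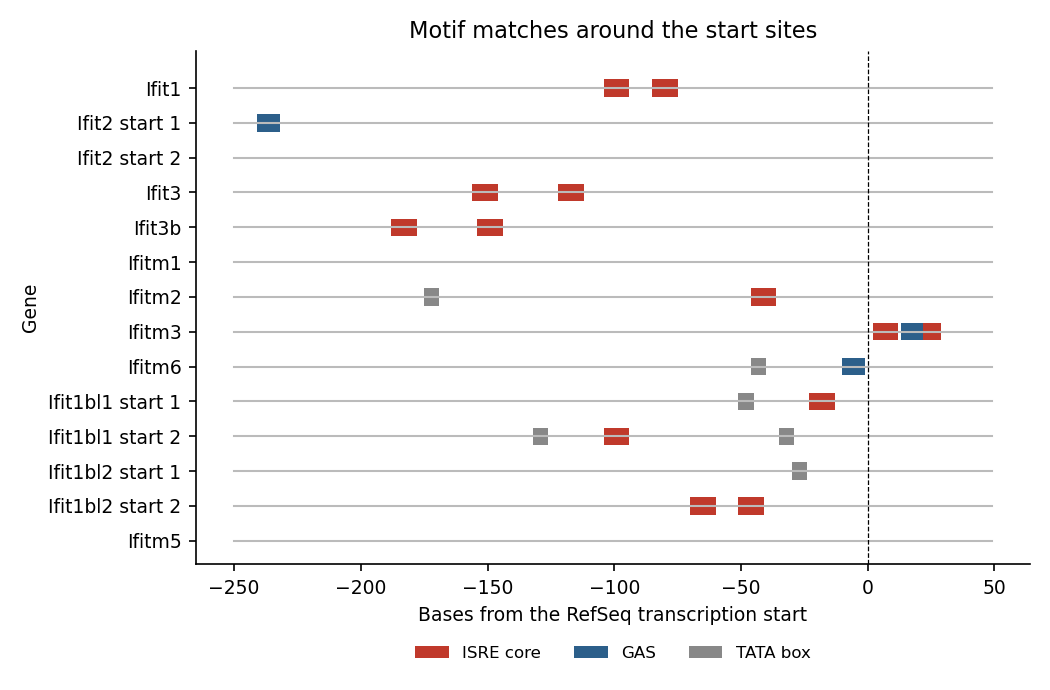
Matches to the ISRE core, the gamma-activated site and the TATA box in the RefSeq promoter windows of the 8 members and of Ifit1bl1, Ifit1bl2 and Ifitm5. The x axis gives bases from the transcription start, each grey line is 1 window, and each box is 1 match on either strand. The 2 cores of Ifit1, of Ifit3 and of Ifit3b lie upstream of the start, while those of Ifitm3 lie just after it.

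The libraries held 36143518 to 47417448 counts. As a check of the labels, the counts of Msr1 were 2118, 1825 and 2000 for MSR1 KO against 7543, 9163 and 9219 for MSR1 WT. The macrophage markers Adgre1 and Csf1r were abundant in every library, at 2172 to 2458 and 4333 to 4565 CPM (counts scaled to equal library size by the TMM method). A differentially expressed gene (DEG) is, by the definition of the study, one that changed more than 1.5-fold with p under 0.05, which was applied here to the unadjusted p because no adjustment is stated. Of 16402 genes tested by edgeR's quasi-likelihood test, 589 (3.59%) were DEGs higher in MSR1 KO and 828 (5.05%) were DEGs lower in MSR1 KO. At an adjusted p under 0.05, whatever the fold, 369 (2.25%) were higher and 436 (2.66%) were lower. In bulk samples such as these, more RNA per cell and more cells of the type that holds it cannot be told apart.

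All 8 members passed the filter on low counts. By the study's definition 7 were DEGs higher in MSR1 KO, all but Ifitm2, beside 3.59% of all tested genes. By adjusted p there were 5 (Ifit2, Ifit3, Ifit3b, Ifitm3 and Ifitm6), beside 2.25% of all tested genes. This second count moved with single libraries. It was 1 when MSR1 KO replicate 1, 2 or 3 was left out, and 6 without MSR1 WT replicate 3. When MSR1 WT replicate 1 or 2 was left out it was 0 by edgeR, although 7 members still met the study's definition as applied here. In the same 7 genes every MSR1 KO library lay above every MSR1 WT library, beside 12.1% of all tested genes. The members were chosen on this contrast, so nothing is read from these counts. The median log2 fold change was 1.53 over the 4 Ifit members and 0.71 over the 4 Ifitm members, against -0.002 over all tested genes.

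**Figure D2:**
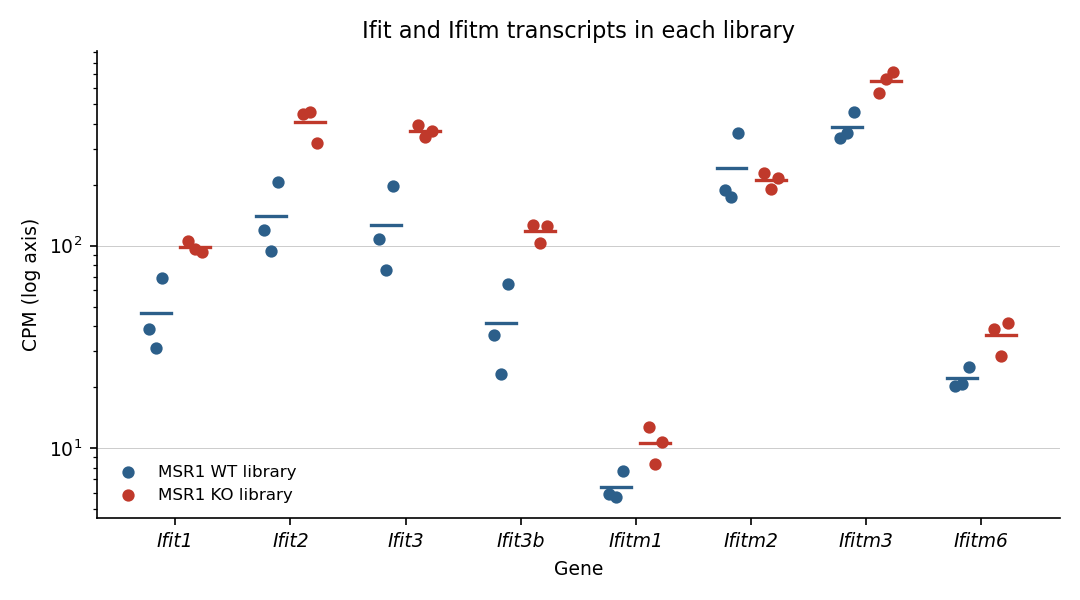
Level of each member in each library in CPM on a log axis. Each point is 1 library and each bar the mean of 3 libraries, with MSR1 WT in blue and MSR1 KO in red. The groups are apart for 7 genes and overlap for Ifitm2, where MSR1 WT replicate 3 stands at 360.1 CPM.

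The Ifit genes lie together on chromosome 19. Ifit2 (ENSMUSG00000045932.12, chr19:34550694-34576419, plus strand), whose product binds AU-rich RNA, had the most counts among them in 5 of the 6 libraries. Its counts were 16079, 18089 and 14880 in MSR1 KO and 4938, 4456 and 8495 in MSR1 WT. MSR1 WT replicate 3 was the highest of its group and still below every MSR1 KO library. The mean level was 407 ± 75.6 CPM in MSR1 KO against 139.8 ± 58.5 CPM in MSR1 WT (SD, n = 3 each). The log2 fold change was 1.54 (standard error 0.274).

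Ifit3 (ENSMUSG00000074896.3, chr19:34583531-34588731, plus strand) encodes the partner that stabilizes Ifit complexes. It had 14168, 13731 and 17093 counts in MSR1 KO against 4455, 3591 and 8123 in MSR1 WT. In CPM the MSR1 KO libraries lay within 1.14 times of each other, while the highest MSR1 WT library was 2.60 times the lowest. The mean levels were 369 ± 24.8 CPM in MSR1 KO and 126.8 ± 62.6 CPM in MSR1 WT, with a log2 fold change of 1.54 (standard error 0.297).

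Ifit3b (ENSMUSG00000062488.9, chr19:34607970-34613401, plus strand) is the near copy of Ifit3. Its counts were 4552, 4105 and 5823 in MSR1 KO and 1491, 1097 and 2667 in MSR1 WT, so the groups were apart and MSR1 WT replicate 3 was again the highest of its group. The log2 fold change was 1.52 (standard error 0.318), on means of 118 ± 13.2 and 41.3 ± 21.2 CPM. The coding sequences of Ifit3 and Ifit3b have 1198 of 1209 bases in common (99.1%), and 521 of the 100-base windows of their transcripts are identical, which is 31.7% of the windows of Ifit3 and 27.4% of those of Ifit3b. The window length was chosen here, and the read length is not given in the sources used here. Reads that lie wholly in identical stretches could come from either gene, so the split between the genes is uncertain. Ifit3b took 24.3%, 23.0% and 25.4% of the summed counts of the pair in MSR1 KO and 25.1%, 23.4% and 24.7% in MSR1 WT. That share was nearly the same in all 6 libraries and the 2 groups overlap in it.

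Ifit1 (ENSMUSG00000034459.8, chr19:34640871-34650009, plus strand), the cap sensor of the family, had 3770, 3832 and 4302 counts in MSR1 KO and 1604, 1481 and 2841 in MSR1 WT. The order of the MSR1 WT libraries was that of the other Ifit genes, with replicate 2 lowest and replicate 3 highest. Mean levels were 97.9 ± 6.37 and 46.3 ± 19.8 CPM. The log2 fold change of 1.08 (standard error 0.255) was the lowest of the 4 Ifit members, and the other 3 lay between 1.52 and 1.54. Per kilobase of exon, Ifit1 made up 8.92%, 9.03% and 8.94% of the summed Ifit level in MSR1 KO and 11.7%, 12.97% and 11.6% in MSR1 WT.

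The Ifit locus holds further copies. Ifit1bl1, whose coding sequence is 74.0% identical to that of Ifit1, had 669, 703 and 1027 counts in MSR1 KO against 150, 116 and 322 in MSR1 WT. It was a DEG, higher by 2.08 on the log2 scale (standard error 0.372, adjusted p = 0.025 by edgeR's quasi-likelihood test), above each of the 4 Ifit members. Ifit1bl2 had only 6 to 26 counts in a library, the groups overlapped, and the difference of 1.01 on the log2 scale (standard error 0.574) was not significant (adjusted p = 0.40). Ifit1bl2 runs head to head with Ifit1, so the Ifit1 stretch with the 2 ISRE cores printed above also lies 85 to 27 bases before 1 of the RefSeq starts of Ifit1bl2, on the other strand. The windows of both RefSeq starts of Ifit1bl1 hold 1 core each.

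The Ifitm genes lie together on chromosome 7. Ifitm3 (ENSMUSG00000025492.6, chr7:141009586-141010770, minus strand), the best known barrier to virus entry among them, had 20466, 26384 and 33472 counts in MSR1 KO against 14059, 17026 and 18972 in MSR1 WT. All MSR1 KO libraries lay above all MSR1 WT libraries, and in CPM the lowest was 1.24 times the highest MSR1 WT library. The mean levels were 651 ± 75.9 and 386 ± 63.8 CPM, with a log2 fold change of 0.75. Its standard error of 0.13 was the smallest among the 8 members.

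Ifitm6 (ENSMUSG00000059108.4, chr7:141015699-141017924, minus strand), a member found mainly in myeloid cells, had 1385, 1132 and 1918 counts in MSR1 KO and 836, 979 and 1044 in MSR1 WT. The groups were apart by a small step, since the lowest MSR1 KO library was at 28.4 CPM and the highest MSR1 WT library at 25.3 CPM. The log2 fold change was 0.71 (standard error 0.155). Ifitm1 (ENSMUSG00000025491.14, chr7:140967221-140969825, plus strand), which is found mostly at the cell surface, had 454, 332 and 499 counts against 243, 273 and 318. It was the least abundant member in CPM, and the step between its groups was smaller still, from 7.70 to 8.34 CPM. Its log2 fold change was 0.71 (standard error 0.195), and it was not a DEG without MSR1 KO replicate 1, where the log2 fold change was 0.57.

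Ifitm2 (ENSMUSG00000060591.9, chr7:140954837-140955987, minus strand), the close relative of Ifitm3 with a coding sequence 75.9% identical to it, did not follow the other members. Its counts were 8187, 7561 and 9995 in MSR1 KO and 7735, 8274 and 14874 in MSR1 WT. MSR1 WT replicate 3, at 360.1 CPM, was above all other libraries, which lay between 174 and 228 CPM. The log2 fold change was -0.19 (standard error 0.252), and without MSR1 WT replicate 3 it was 0.22. Thus 1 library set its sign.

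The annotation places a second gene on the same bases. Gm45717 (ENSMUSG00000110104.1, chr7:140949222-140955937, minus strand), named here after its values were seen, has 495 exon bases, of which 268 lie in the first exon of Ifitm2 (40.9% of the exon bases of Ifitm2) and 227 in an exon of Ifitm5. None of the other 7 members shares exon bases with another gene. Gm45717 had 6241, 6036 and 7906 counts in MSR1 KO, 6400 and 6628 in MSR1 WT replicates 1 and 2, and 0 in MSR1 WT replicate 3. In 5 libraries it thus took 43.3% to 45.3% of the summed counts of Ifitm2 and Gm45717, and in the library where Ifitm2 was high it took none. Summed over both genes, the level was 401.7, 341.5 and 385.2 CPM in MSR1 KO and 342.8, 314.1 and 360.1 CPM in MSR1 WT. MSR1 WT replicate 3 no longer stood apart, and the groups overlapped. The sum was 376 ± 31.1 CPM in MSR1 KO against 339 ± 23.2 CPM in MSR1 WT, a log2 fold change of 0.15 (standard error 0.0848) that did not reach the study's fold. This sum was chosen after the data had been seen, and how reads on the shared exon were assigned is not given in the sources used here.

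**Figure D3:**
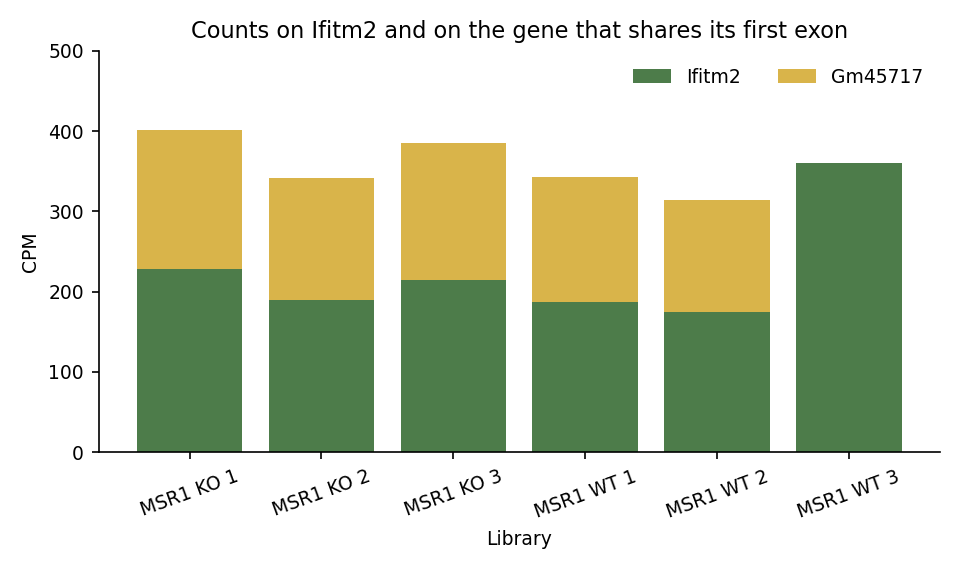
Counts on Ifitm2 (green) and on Gm45717 (yellow), stacked, in CPM for each of the 6 libraries. Gm45717 is at 0 in MSR1 WT replicate 3, while the summed height runs from 314.1 to 401.7 CPM over the libraries.

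The ratio of Ifitm3 counts to this sum was 1.42, 1.94 and 1.87 in MSR1 KO and 0.995, 1.14 and 1.28 in MSR1 WT. It is a description, since Ifitm3 was chosen with this contrast known and the sum after the data had been seen. Of the remaining Ifitm genes, Ifitm5, which is known from osteoblasts, had 5 to 17 counts in each library and differed by -0.04 on the log2 scale (standard error 0.583, adjusted p = 0.98 by edgeR's quasi-likelihood test). Ifitm7 had 2, 0 and 5 counts in MSR1 KO and 0 in all MSR1 WT libraries, and Ifitm10 had 0 to 14 counts, so neither was tested.

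**Figure D4:**
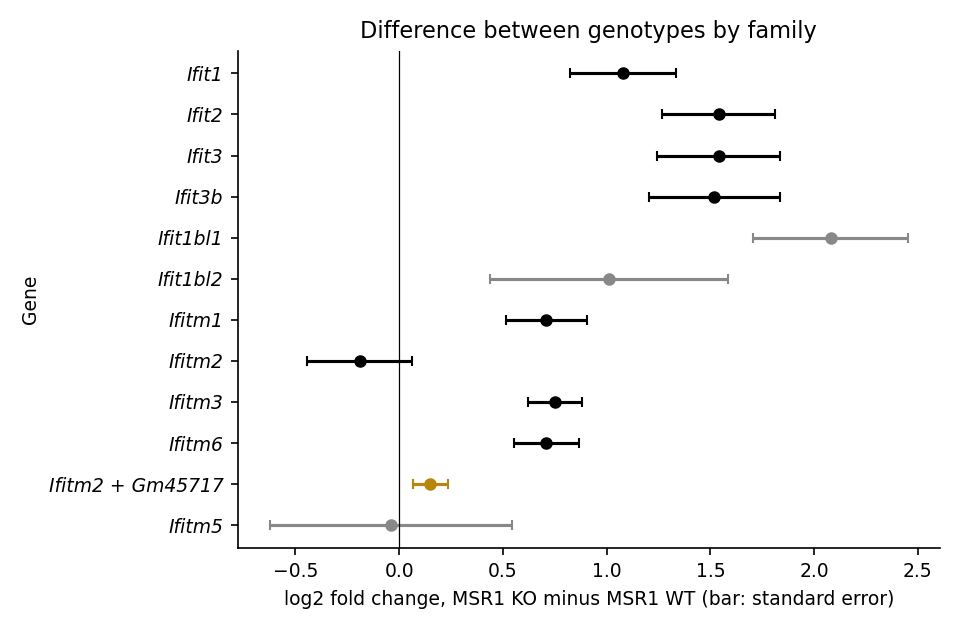
Log2 fold change of each gene, MSR1 KO minus MSR1 WT, with its standard error as a bar. Members are in black, other genes of the families in grey, and the sum of Ifitm2 and Gm45717 in gold. The Ifit members lie between 1.08 and 1.54, Ifitm1, Ifitm3 and Ifitm6 between 0.71 and 0.75, and Ifitm2 at -0.19.

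Dividing by exon length allows a rough comparison of levels between genes. In MSR1 WT macrophages the order in CPM per kilobase of exon was Ifitm3 (570 ± 94.0), Ifitm2 (367 ± 158), Ifit3 (72.7 ± 35.9), Ifit2 (35.6 ± 14.9), Ifitm6 (24.4 ± 3.08), Ifit3b (20.6 ± 10.6), Ifit1 (17.4 ± 7.47) and Ifitm1 (5.89 ± 0.991). The ranges of neighbours in this order overlapped except between Ifitm2 and Ifit3 and between Ifit1 and Ifitm1. In MSR1 KO macrophages the order was Ifitm3 (960 ± 112), Ifitm2 (322 ± 29.5), Ifit3 (212 ± 14.2), Ifit2 (104 ± 19.3), Ifit3b (59.2 ± 6.62), Ifitm6 (39.9 ± 7.47), Ifit1 (36.9 ± 2.40) and Ifitm1 (9.66 ± 1.97). Here neighbours were apart except Ifitm6 and Ifit1. The orders differ by the exchange of Ifit3b and Ifitm6, whose ranges overlapped in MSR1 WT. The levels of Ifit3 and Ifit3b also rest on an uncertain split of shared reads. In all 6 libraries Ifit3 was above Ifit2. Ifitm3 was above Ifitm2 in all 6 as well, but the count of Ifitm2 and Gm45717 together in MSR1 WT replicate 1, 14135, was above the 14059 of Ifitm3. Gm45717, which shares exon bases with Ifitm2, held counts in 5 libraries and was at 0 in MSR1 WT replicate 3. Whether those counts are reads of Ifitm2 was not tested. The comparison of the MSR1 WT mean of Ifitm2 with its MSR1 KO mean is therefore uncertain.

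The spread within MSR1 WT had a pattern of its own. In CPM, MSR1 WT replicate 3 was 1.93 to 2.18 times the mean of replicates 1 and 2 for the 4 Ifit members, against 1.24 to 1.32 times for Ifitm1, Ifitm3 and Ifitm6. Such ratios were not confined to the Ifit members. The ratio was 2.56 for Ifit1bl1, 1.9 for Usp18 and 2.01 for Gzmb, but 1.25 for Irf9 and 0.83 for Irf1. How common such ratios are among all genes was not tested. The summed Ifit level was 1074, 999 and 906 CPM in MSR1 KO and 303, 224 and 536 CPM in MSR1 WT. The MSR1 WT libraries thus differed more among themselves than the MSR1 KO libraries did. Without MSR1 WT replicate 3 the log2 fold changes of Ifit1, Ifit2 and Ifit3 were 1.48, 1.93 and 2.01, and without MSR1 WT replicate 2 they were 0.86, 1.32 and 1.28.

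**Figure D5:**
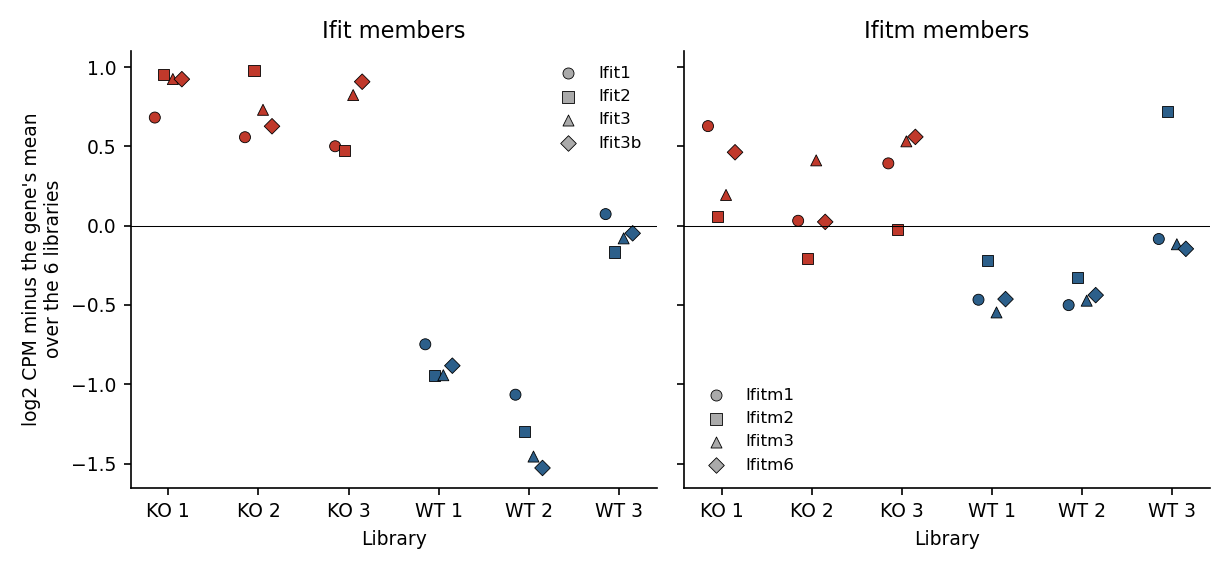
Log2 CPM of each member minus its mean over the 6 libraries, by library, for the Ifit members (left) and the Ifitm members (right). Points are single values, with MSR1 KO in red and MSR1 WT in blue. The Ifit members keep together in each library and are highest within MSR1 WT in replicate 3, whereas Ifitm2 leaves the other Ifitm members in that library.

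The pattern of each member over the 6 libraries was compared with that of its family by the root mean square difference of centred log2 CPM. For the Ifit members the difference from the mean of the other 3 was 0.113 for Ifit3, 0.174 for Ifit3b, 0.197 for Ifit2 and 0.244 for Ifit1. Ifit3 and Ifit3b were each compared with a mean that holds the near copy. The split of reads between them is uncertain, so their closeness may be partly built in. The mean Ifit pattern holds both copies as well. For the Ifitm members it was 0.184 for Ifitm6, 0.192 for Ifitm1 and 0.26 for Ifitm3, but 0.47 for Ifitm2. Among all other tested genes, those nearest to the mean Ifit pattern were Ifi213 (0.07), Ifi205 (0.098), H2-T24 (0.102), Ifi208 (0.12) and Irf7 (0.125). The nearest to the mean Ifitm pattern, in which Ifitm2 carries 1 part in 4, included C1qtnf1 (0.023), Cxcr3 (0.039), Pear1 (0.057) and Cd300e (0.058). With Ifitm2 left out, a choice made after the data had been seen, they included Mill2 (0.061), Slfn2 (0.075), Gm7206 (0.075) and Ddx58 (0.083). The 2 sets of 5 genes around the Ifitm pattern share no gene, so that list turned on Ifitm2. These are descriptions over 6 libraries in 2 groups, and any gene with a similar difference between the groups comes out near.

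Interferon signalling genes, further Ifit and Ifitm genes, and genes whose products work with the Ifit and Ifitm proteins were taken from 8 lists of 103 genes in all. Of these, 79 were tested, 14 (17.7%) were DEGs higher in MSR1 KO and 3 (3.8%) were DEGs lower, beside 3.59% and 5.05% of all tested genes. The lists were chosen with earlier results of these data known. Counts and p-values for these and the later gene lists are therefore descriptions, and nothing is read from the shares. The median log2 fold change over the 79 genes was 0.1. By adjusted p, 16 were higher and 2 lower. The 14 higher DEGs were 2 genes of the list of receptors, kinases and STATs, 3 regulatory factors, 2 negative regulators, 6 sensors or adaptors and the Ifit copy Ifit1bl1.

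Counts on the interferon genes themselves were close to absent. None of the 21 ligand genes passed the filter, 17 had no count in any library, and the summed counts were 13, 10 and 3 in MSR1 KO and 5, 2 and 8 in MSR1 WT. Ifnb1, the interferon beta gene, had 8, 6 and 0 counts in MSR1 KO and 0, 0 and 4 in MSR1 WT. A difference in ligand transcripts was not detectable in these counts. Whether a count of 0 reflects the RNA or the processing was not tested, and the 37 mitochondrial genes had 0 counts in total. Interferon protein was not measured.

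Of 13 receptors, kinases and STATs, 2 were DEGs, both higher. Stat2, a part of ISGF3, rose by 1.27 on the log2 scale (standard error 0.201, adjusted p = 0.019 by edgeR's quasi-likelihood test), with 276.5, 297.5 and 225 CPM in MSR1 KO against 97.0, 86.6 and 149.0 CPM in MSR1 WT. Irf9, the DNA-binding part of ISGF3, was higher at an adjusted p of 0.035 by the same test, but its log2 fold change of 0.48 was under the study's fold. Of the type I interferon receptor chains, Ifnar1 differed by -0.09 on the log2 scale (adjusted p = 0.52) and Ifnar2 by 0.24 (adjusted p = 0.072).

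Of 9 tested interferon regulatory factors, 3 were DEGs, all higher. Irf7, which amplifies interferon production, led with a log2 difference of 1.35 (standard error 0.242, adjusted p = 0.025 by edgeR's quasi-likelihood test). Irf1 had 1.02 (adjusted p = 0.073) and Irf5 0.60 (adjusted p = 0.024). Of 10 negative regulators, 2 were DEGs, both higher, namely Socs1, an inhibitor of Janus kinases (log2 fold change 1.36, adjusted p = 0.045), and Usp18, which removes Isg15 from proteins and blocks Ifnar2 (1.08, adjusted p = 0.063). Of 17 nucleic acid sensors and adaptors, 6 were DEGs, all higher. The largest changes among them were those of Zbp1, a sensor of Z-form nucleic acids (1.63, adjusted p = 0.026), Dhx58 (0.92, adjusted p = 0.027), Tlr9 (0.78, adjusted p = 0.026) and Ifih1, the sensor Mda5 (0.71, adjusted p = 0.027).

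The factors that the Ifit and Ifitm proteins act with made up 2 further lists. Of 17 cap methylation and translation factors, none was a DEG by edgeR's quasi-likelihood test or by DESeq2, and none passed the adjusted threshold, while 1 had an unadjusted p under 0.05 by edgeR and 2 by DESeq2. Cmtr1, which adds the cap methyl group that lets self RNA escape Ifit1, differed by 0.30 on the log2 scale (adjusted p = 0.28). Of 10 enzymes and partners that handle Ifitm proteins, 3 were DEGs, all lower. The tetraspanin Cd9 fell by 1.54 on the log2 scale (standard error 0.0861, adjusted p = 0.00045), and the tetraspanin Cd81 fell by 0.65 (adjusted p = 0.027). Nedd4, a ubiquitin ligase that marks Ifitm3 for breakdown, had a log2 fold change of -0.76 with an adjusted p of 0.077. Zdhhc20, which attaches palmitate to Ifitm3, had -0.23 (adjusted p = 0.13).

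Most genes around the 2 clusters were not DEGs. The Ifit cluster spans 99.3 kb, and of 11 tested genes that are no members and lie in it or within 500 kb, 1 was a DEG higher in MSR1 KO and 2 were DEGs lower. The higher gene was Ifit1bl1. The lower ones were Acta2, which encodes smooth muscle actin (log2 fold change -0.68, adjusted p = 0.024 by edgeR's quasi-likelihood test), and Kif20b, a kinesin of cell division (-0.66, adjusted p = 0.16). The nearest tested genes on either side, Lipa and Pank1, had -0.14 (adjusted p = 0.24) and -0.22 (adjusted p = 0.59). The Ifitm cluster spans 63.1 kb, and of 34 such genes 1 was a DEG, the interferon-induced Irf7. The nearest there were Ifitm5, given above, and Pkp3 (log2 fold change 0.30, adjusted p = 0.75). Beside 8.64% of all tested genes that were DEGs in either direction, 4 of these 45 neighbours were, and 2 without MSR1 WT replicate 1.

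Markers of other cells were summed in each library to set beside these levels. The 9 markers of T and NK cells summed to 45.2, 45.3 and 59.1 CPM in MSR1 KO and 14.9, 10.1 and 28.8 CPM in MSR1 WT, with the MSR1 WT libraries in the same order as the summed Ifit level. Of 7 tested, 3 were DEGs, all higher, namely Gzmb (log2 fold change 1.90, adjusted p = 0.020 by edgeR's quasi-likelihood test), Klrb1c (1.39, adjusted p = 0.028) and Trac (1.11, adjusted p = 0.21). The defining T cell marker Cd3e was at 0 in 3 libraries and had at most 9 counts in the others. The NK cell marker Ncr1 was present in every library, with 172, 237 and 284 counts in MSR1 KO and 129, 74 and 232 in MSR1 WT, and so was Nkg7, with 194, 189 and 346 counts against 70, 39 and 202. Both had the MSR1 WT order of the Ifit genes, and neither was a DEG. The 8 plasmacytoid dendritic cell markers summed to 478 to 526 CPM in MSR1 KO and 281 to 384 CPM in MSR1 WT, most of it from Bst2, which interferon also induces, and 2 of 5 tested were DEGs, both higher. The other of these DEGs was Ccr9, a chemokine receptor, with a log2 fold change of 1.69 (adjusted p = 0.10 by edgeR) and MSR1 WT replicate 3 the highest of its group. Their defining marker Siglech had 4 to 31 counts in a library, Tcf4 was at 98.3 to 122 CPM, and Ly6d and Klk1 were at 0 in all libraries. The 14 stromal markers, which could come from BMSCs, summed to 1450 to 1910 CPM in MSR1 KO and 1896 to 2435 CPM in MSR1 WT, with overlapping groups, and 6 of the 14 were DEGs lower and 1 a DEG higher. The 14 macrophage markers summed to 30060 to 31610 CPM and 29690 to 32760 CPM, with overlapping groups and 1 DEG, the Fc receptor gene Fcgr1, which interferon induces (log2 fold change 1.14, adjusted p = 0.018). Ly6C monocyte markers (579.5 to 768 CPM against 717 to 794 CPM), neutrophil markers (997 to 1420 CPM against 694 to 1101 CPM) and B cell markers (191 to 255 CPM against 124 to 164 CPM) were measured too, and the groups overlapped for the first and second of these. Of these 3 lists, 3 of 7, 2 of 13 and 1 of 2 tested genes were DEGs higher, and 1 Ly6C monocyte gene was a DEG lower. The part of these cells in the Ifit and Ifitm levels was not tested.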

How the data were processed

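The authors aligned RNA-seq reads with TopHat, whereas the submitters' processing notes list fastp 0.17.1, HISAT2 2.1.0, DESeq2 1.18.1 and R 3.4.3. The counting program, strand setting and genome build are not given in the sources used here. The authors deposited 1 table with raw counts per gene and library, normalized counts (a signal, each count divided by a size factor, not used further) and columns of their own comparison, which were not used. Positions follow GRCm38, since 49909 of 52550 genes have the same start and end in its GENCODE M21 annotation.

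Counts were analysed in R 4.3.3 with edgeR 4.0.16 (filterByExpr, TMM, quasi-likelihood test, Benjamini-Hochberg adjustment over all 16402 tested genes). Standard errors were taken from the log2 fold change and its F statistic. Members and gene lists were chosen with earlier results of these data known. Genes named were every member, the other Ifit and Ifitm genes, up to 4 DEGs with the largest change in each pathway list, fixed signalling genes, called and nearest neighbours, and the 5 genes nearest to each family pattern. Some genes that this rule names are not reported here. In simulated counts for MSR1 KO against MSR1 WT (16044 genes tested), 136 of 200 genes changed 2-fold were found by edgeR after adjustment, beside 11 other calls. Under the study's definition 186 were found, beside 289 other calls. Alternatives were DESeq2 1.42.0, other scalings and filters, a replicate block, fits that leave out each library, and a wider neighbour window. Summed Ifit3 with Ifit3b, summed Ifitm2 with Gm45717 and the Ifitm pattern without Ifitm2 were chosen once the data were known.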

Additional observations from a re-analysis of the deposited data

How the results depend on the processing

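Under 14 alternatives, 6 to 7 members met the study's definition, and the log2 fold changes of the 7 members other than Ifitm2 stayed positive (0.57 to 2.01). The number past the adjusted threshold was 5, and it was 3 with no filter beyond a total count above 0, 7 by DESeq2's Wald test, and 0 to 6 with single libraries left out by edgeR. With fewer samples the test has less power. The replicate numbers did not pair the libraries (correlations of deviations -0.026, 0.019 and -0.005), and with them as a block 2 members passed. Neighbouring DEGs numbered 4, 2 to 5 with single libraries left out, and 5 within 1000 kb. The log2 fold change of Ifitm2 ran from -0.38 to 0.22 with single libraries left out (0.22 without MSR1 WT replicate 3) and was 0.15 summed with Gm45717, an alternative added after the data had been seen. With Ifit3 and Ifit3b summed, 6 genes met the definition because the pair counts once. Over 12 alternatives, 11 to 15 pathway genes were DEGs higher and 2 to 4 lower, and 540 to 754 and 673 to 966 of all genes. With 3 libraries a group, the p-values measure the spread between these libraries only.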
